A study of Mus musculus with 14 samples.

Results

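Of the 54524 genes counted in liver sinusoidal endothelial cells (LSECs), 10 genes of p53 signalling and growth arrest are described here: Cdkn1a, Mdm2, Ccng1, Trp53inp1, Bax, Bbc3, Gdf15, Sesn2, Gadd45a and Cdkn1b. They were listed by name, with earlier results of these data known and no measured value in the rule, and all 10 were among the 26626 genes with enough counts to be tested. p53 is a transcription factor that is held low in resting cells by the ubiquitin ligase MDM2 and that accumulates after DNA damage or other stress. It switches on genes that stop the cell cycle (Cdkn1a, Gadd45a, Ccng1), genes that open the way to apoptosis (Bax, Bbc3, Trp53inp1), genes of metabolic and stress signalling (Sesn2, Gdf15) and its own inhibitor Mdm2. Cdkn1b encodes p27, a second inhibitor of cyclin-dependent kinases, which is controlled largely through the stability of its protein and is not a classical p53 target.

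LSECs line the capillaries of the liver lobule. RNA was sequenced from LSECs of male Balb/c mice, aged 10 to 12 weeks by the sample labels, that were healthy and not injected (4 mice) or had received a single intraperitoneal injection of CCl4, a solvent that hepatocytes convert into a toxic radical, 1 day (2 mice), 3 days (4 mice) or 7 days (4 mice) earlier. The dose was 0.5 µl per g of body weight in mineral oil, no group injected with oil alone was analysed here, and day 1 has 2 mice because RNA of the others was of too low quality. Cells were sorted as CD32+, F4/80-, low in ultraviolet autofluorescence and propidium iodide negative, and the study's methods also name CD45 as absent. The comparisons ask how the genes stood at each day after injury against the same 4 healthy mice, and between consecutive days.

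Libraries held 46401496 to 103912264 counts, and every gene of the group had 143 or more counts in every mouse. The summed level of 10 LSEC markers was 16313 to 19678 CPM (counts scaled to library size, with the TMM method) in healthy mice, between 12416 and 15178 on day 1, 10504 and 14435 on day 3, and 9796 and 14130 on day 7, and none of the markers was at 0 throughout a group. On day 1, 2 of them were called higher and 1 lower than in healthy mice (edgeR, adjusted p under 0.05), against 2.42% and 1.64% of tested genes. Lyve1 lay at 271 to 534 CPM in healthy mice and 3020 and 3397 CPM on day 1, and Fcgr2b at 2443 to 3397 CPM and 1585 and 1798 CPM. Markers of other cells were present too. The 10 hepatocyte markers summed to 8130 CPM in healthy replicate 4, against at most 359 CPM in the other healthy mice, 31.5 to 135 CPM at day 1, 817 to 2902 CPM at day 3 and 765 to 6292 CPM at day 7. The 11 monocyte and neutrophil markers summed to 523 to 1428 CPM in healthy mice, with ranges of 4662 to 9037, 1385 to 13407 and 4211 to 9692 CPM on days 1, 3 and 7. Of these 11, 6 were called higher on day 1, 4 on day 3 and 1 on day 7, against 2.42%, 4.62% and 2.19% of tested genes. S100a8 lay at 4.03 to 34.0 CPM in healthy mice, 736 and 2140 CPM on day 1, 3.21 to 992 CPM on day 3 and 28.9 to 45.8 CPM on day 7. The 12 stellate cell markers summed to 157 to 285 CPM in healthy mice, and to 113 to 137, 868 to 2699 and 468 to 7658 CPM on days 1, 3 and 7. The 5 cholangiocyte markers summed to 79.2 to 193 CPM in healthy mice, 229 to 301 CPM on day 1, 321 to 1178 CPM on day 3 and 598 to 5255 CPM on day 7. Of these 5, 1 was called higher on day 3 and 1 on day 7, against 4.62% and 2.19% of tested genes. Krt19 lay at 1.41 to 5.04 CPM in healthy mice and 1.90 to 11.7 CPM on day 7, with 2.88 CPM in day 7 replicate 2, where the sum was 5255 CPM. The summed level of the 10 macrophage markers overlapped between the groups, and 2 of them were called higher on day 3 and 2 on day 7. The part of these cells in the results below was not tested. Day 3 replicate 4 had the fewest genes with a count, 22986 against 27283 to 34768 in the others. In bulk RNA, fewer cells of a type and less RNA per cell cannot be told apart.

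The promoters of the group are shown first because p53 acts on its targets through a known DNA element, made of 2 half-sites of 10 bases separated by 0 to 13 bases. Each half-site keeps a fixed C and G at its core, and because the element reads alike on both strands, one search covered both. RefSeq (build GRCm38.p6) gave promoter windows for 9 of the 10 genes, with Trp53inp1 as the gene without an entry. In the 250 bases before the start, a pair of half-sites with at most 2 mismatches of 20 was found for 4 of the 9 genes, against 3.87% of the 27025 genes with a window. These are Cdkn1a on the plus strand at chr17:29090729-29090978, Ccng1 on the minus strand at chr11:40755292-40755536, Bax on the minus strand at chr7:45466899-45467148 and Gadd45a on the minus strand at chr6:67037438-67037657. Each is printed 5′ to 3′ along its gene, with the half-sites that take part in a pair in capitals, and those of Ccng1 and Gadd45a are shortened at the 3′ end so that at most 20 bases of the transcript annotated by GENCODE are shown.
Cdkn1a: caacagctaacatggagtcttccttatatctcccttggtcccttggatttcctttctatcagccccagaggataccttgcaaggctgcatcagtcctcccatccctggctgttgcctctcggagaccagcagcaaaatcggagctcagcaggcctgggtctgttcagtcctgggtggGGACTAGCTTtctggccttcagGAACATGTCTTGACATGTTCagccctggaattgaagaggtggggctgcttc
Ccng1: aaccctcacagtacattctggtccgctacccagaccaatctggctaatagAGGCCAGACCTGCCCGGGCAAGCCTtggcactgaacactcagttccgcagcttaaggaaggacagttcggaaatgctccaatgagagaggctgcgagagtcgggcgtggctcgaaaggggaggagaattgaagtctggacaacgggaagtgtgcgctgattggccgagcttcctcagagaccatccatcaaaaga
Bax: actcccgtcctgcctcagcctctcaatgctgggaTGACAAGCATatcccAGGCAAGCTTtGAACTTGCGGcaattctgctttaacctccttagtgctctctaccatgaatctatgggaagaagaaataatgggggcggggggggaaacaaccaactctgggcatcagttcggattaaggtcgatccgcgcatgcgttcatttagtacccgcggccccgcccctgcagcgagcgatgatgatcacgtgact
Gadd45a: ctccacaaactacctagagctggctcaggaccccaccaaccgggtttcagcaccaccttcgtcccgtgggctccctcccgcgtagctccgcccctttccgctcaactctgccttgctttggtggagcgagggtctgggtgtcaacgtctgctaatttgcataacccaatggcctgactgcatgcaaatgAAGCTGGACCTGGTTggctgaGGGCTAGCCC
Cdkn1a had 2 RefSeq windows. The printed one held a pair with 0 mismatches, which 0.0666% of genes with a window had, with a spacer of 12 bases. A further half-site followed directly, so that 3 half-sites lay between 73 and 32 bases before the start that belongs to this window. The other window, at chr17:29093519-29093768 before a start further downstream, held no pair. In Ccng1 the best pair had 1 mismatch and no spacer, and 3 half-sites, which partly overlap, lay between 200 and 176 bases before the start. In Bax 3 half-sites lay between 216 and 181 bases before it and in Gadd45a between 61 and 31 bases before it, with 2 mismatches in the best pair of each. The last half-site of Gadd45a lies inside the transcript as GENCODE annotates it, which begins upstream of the RefSeq start. No pair was found within 250 bases of the RefSeq starts used for Mdm2, Bbc3, Gdf15, Sesn2 and Cdkn1b, which says only that these letters are not in these windows. A match is a sequence, and no p53 binding was measured here. All 4 genes with a match had their highest mean at day 1, as did Mdm2 and Cdkn1b, which had no match. For Ccng1 the day 1 mean was 43.9 CPM, against 42.7 CPM in healthy mice. That of Cdkn1b was 45.9 CPM, against 45.5 CPM at day 7. Of the 4 genes, Ccng1 was the 1 that passed the test against healthy mice at any day, with a fall at day 3. Whether the courses of genes with and without a match differed was not tested.

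Per length of transcript, which allows genes to be set against each other, Bax and Cdkn1a were the most abundant of the group in healthy LSECs, at 87.5 ± 12.8 and 87.1 ± 30.4 CPM per kb of exon (SD, n = 4). Gadd45a followed at 35.4 ± 9.75 and Sesn2 at 15.05 ± 2.79 CPM per kb. The intervals of mean ± SD of Sesn2, Ccng1 (12.2 ± 1.23) and Mdm2 (10.5 ± 1.03) overlapped from each neighbour to the next, as did those of Mdm2 and Cdkn1b (7.52 ± 4.34). Bbc3 (5.10 ± 0.621), Trp53inp1 (4.69 ± 0.381) and Gdf15 (3.79 ± 4.18 CPM per kb) came last, and Gdf15 had the widest spread of the group among healthy mice, with an SD of 110% of its mean. The plot of CPM by mouse shows the 10 genes side by side.

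**Figure D1:**
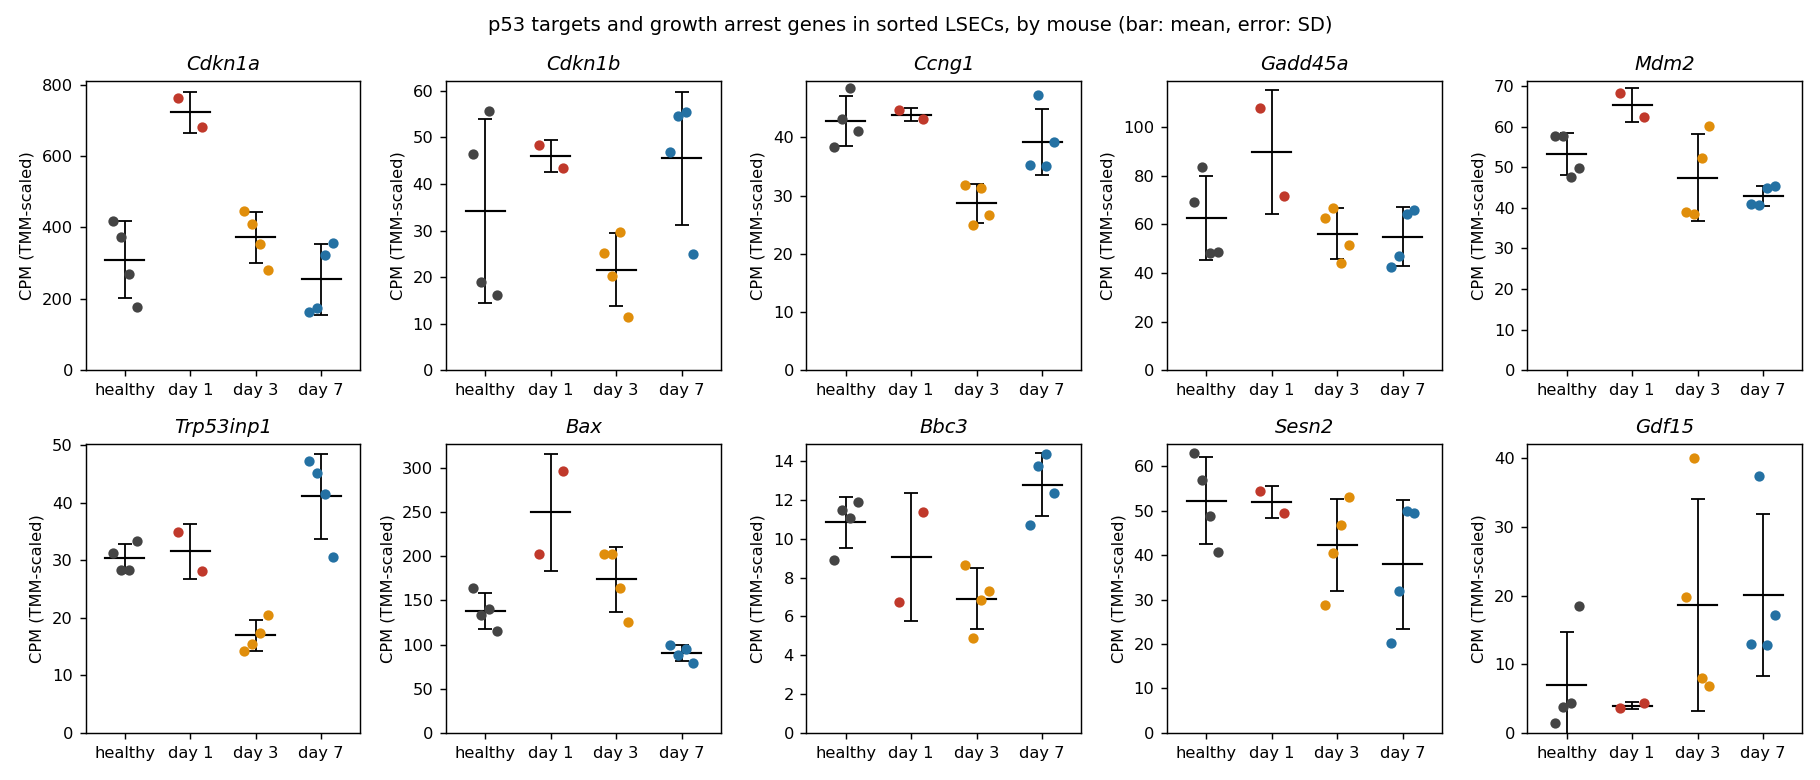
Level of each of the 10 genes in CPM (linear axis from 0, TMM-scaled) in each mouse, by group (healthy n = 4, day 1 n = 2, day 3 n = 4, day 7 n = 4). Points are mice, the horizontal bar is the mean and the error bar the SD, cut off at 0 for Gdf15 in healthy mice. Cdkn1a and Bax stand highest at day 1, Trp53inp1 and Ccng1 lowest at day 3.

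One day after CCl4, none of the 10 genes passed the test of edgeR at an adjusted p under 0.05, while 4.06% of all tested genes did (2.42% higher and 1.64% lower). At an unadjusted p under 0.05 there were 2, Cdkn1a and Bax, against 4759 of all 26626 tested genes. DESeq2 called the same 2, and 2762 genes in all. For 3 genes, Cdkn1a, Bax and Mdm2, each day 1 mouse exceeded the highest healthy mouse, and for none was it below the lowest, against 20% and 17.9% of all tested genes. The median log2 fold change of the 10 genes was 0.18, against -0.03 over all tested genes. At day 3 the picture differed: 2 of the 10 genes fell, Ccng1 and Trp53inp1, and none rose, against 7.19% of tested genes in all, 2.58% lower and 4.62% higher. All day 3 mice lay below all healthy mice for 3 genes (Ccng1, Trp53inp1 and Bbc3) and above them for none, against 6.84% and 7.53% of tested genes, and the median log2 fold change of the group was -0.24, while that of all tested genes was 0.18. At day 7 none of the 10 was called by edgeR (3.18% of tested genes were, 2.19% higher and 0.992% lower). At an unadjusted p under 0.05 there were 2 (Trp53inp1 and Bax), against 5609 of all 26626 tested genes. DESeq2 called Bax, and 2619 genes in all. All 4 day 7 mice lay below the healthy mice for 2 genes, Bax and Mdm2, and above them for none, against 12.1% and 8.72% of tested genes, and the median log2 fold changes were -0.16 for the group and 0.02 for all tested genes. The 3 comparisons share the 4 healthy mice, so a healthy mouse that stands apart moves all of them.

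**Figure D2:**
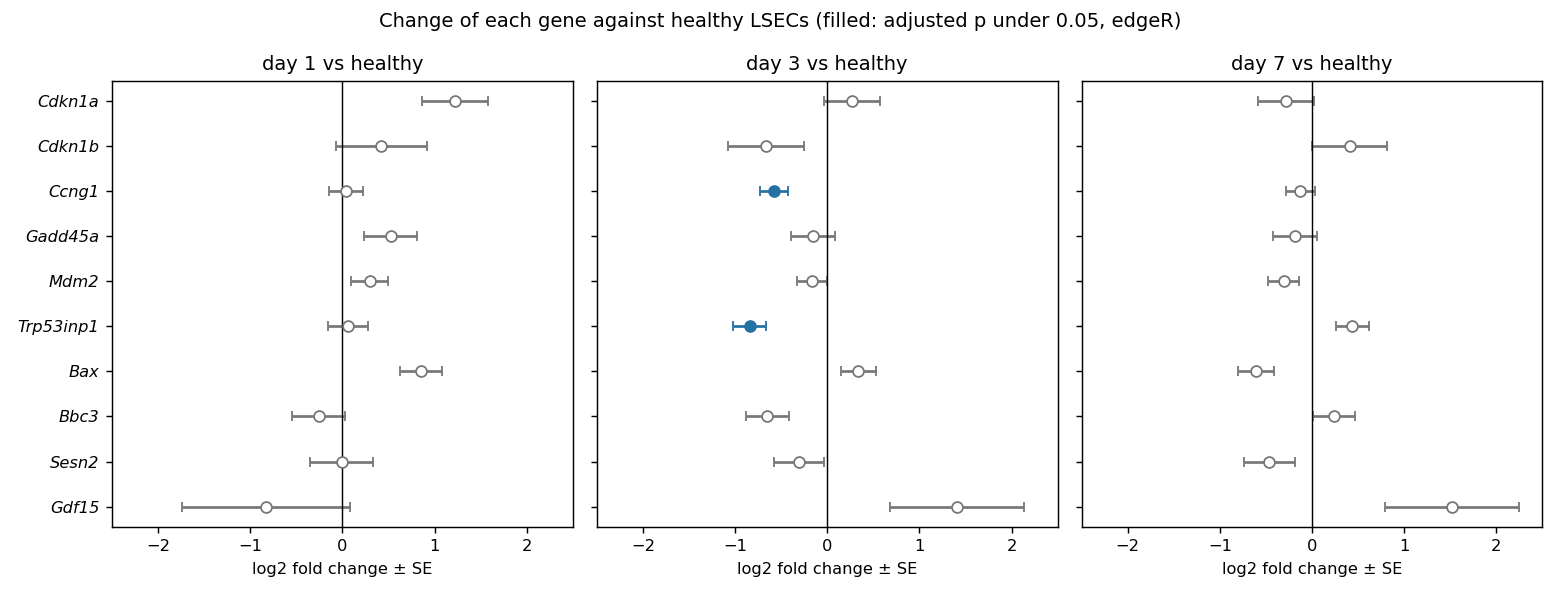
Log2 fold change of each of the 10 genes against healthy LSECs at day 1, day 3 and day 7 (x axis, log2 scale; bars are SE from edgeR, 4 healthy mice against 2, 4 and 4). Filled points passed an adjusted p under 0.05, which were Ccng1 (-0.57) and Trp53inp1 (-0.84) at day 3, and Gdf15 has the widest bars.

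Cdkn1a (ENSMUSG00000023067, chromosome 17, 29090976 to 29100727, plus strand, GRCm38) encodes p21, the inhibitor of cyclin-dependent kinases that carries most of the cell cycle arrest set off by p53. In the 4 healthy mice it stood at 418, 373, 269 and 177 CPM. It reached 763 and 683 CPM in the 2 mice at day 1. Both day 1 mice were thus well above every healthy mouse, and the healthy mice differed among themselves by more than 2-fold. The levels were 447, 409, 353 and 282 CPM at day 3 and 164, 175, 322 and 357 CPM at day 7, and at both times they overlapped with those of healthy mice. The mean at day 1 was 2.34 times that of healthy LSECs (log2 fold change 1.22 ± 0.36 SE). This difference did not pass edgeR's test after adjustment (adjusted p = 0.0773, unadjusted p = 0.00445), while DESeq2 gave an adjusted p of 0.0217, and over all alternatives the log2 fold change ranged from 1.01 to 1.40 and the adjusted p from 0.0217 to 0.513. The log2 fold changes at day 3 (0.27 ± 0.30) and day 7 (-0.28 ± 0.30) were within their error, with edgeR adjusted p-values of 0.658 and 0.639. All 4 day 3 mice lay below both day 1 mice, a difference of -0.96 ± 0.36 on the log2 scale that was not called (edgeR, adjusted p = 0.208). An antisense gene, AC167363.2, overlaps Cdkn1a, at 2.64 to 7.32 CPM, and the sources used here do not say whether counting used the strand.

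Gadd45a (ENSMUSG00000036390, chromosome 6, 67035096 to 67037457, minus strand), a stress sensor that binds PCNA and p21 and can hold cells before mitosis, was the member whose pattern over the 14 mice was nearest to that of Cdkn1a. Likeness was measured as the root mean square difference of log2 CPM after each gene was scaled to mean 0 and SD 1, where 0 means the same pattern, and was 0.582 for this pair. Gadd45a lay at 48.4 to 83.7 CPM in healthy mice and at 108 and 71.9 CPM at day 1. The lower day 1 mouse was inside the healthy range. At day 3 the range was 44.0 to 66.8 and at day 7 42.3 to 66.1 CPM, both overlapping with the healthy mice. Its log2 fold changes of 0.52 ± 0.28, -0.15 ± 0.24 and -0.19 ± 0.24 were not called (edgeR, adjusted p = 0.378, 0.75 and 0.696). Its antisense neighbour E230016M11Rik, which overlaps it, lay at 0.754 to 3.90 CPM.

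Ccng1 (ENSMUSG00000020326, chromosome 11, 40748552 to 40755311, minus strand) encodes cyclin G1, which recruits a phosphatase to MDM2 and so feeds back on p53. Healthy mice had 38.3, 43.2, 48.5 and 41.0 CPM, and the 2 day 1 mice had 44.6 and 43.1 CPM. These groups overlapped, with a log2 fold change of 0.04 ± 0.19. At day 3 the values were 31.8, 25.0, 31.3 and 26.7 CPM, and at day 7 35.3, 47.2, 35.0 and 39.2 CPM. All day 3 mice were below every mouse of the other 3 groups. The fall from healthy to day 3 was -0.57 ± 0.15 on the log2 scale, a drop to 28.7 ± 3.35 CPM from 42.7 ± 4.31 CPM (SD, n = 4 each; edgeR, adjusted p = 0.0389). The call was lost when any one of healthy replicates 1 to 4 or day 3 replicate 2 was left out (adjusted p = 0.0644, 0.096, 0.116, 0.0554 and 0.103), with library size as the only scaling (adjusted p = 0.0759), with the replicate block (0.0783) and without the 2 libraries that stand apart, healthy replicate 4 and day 3 replicate 4 (0.0609). It was kept in 6 of 14 alternatives, while the log2 fold change stayed between -0.78 and -0.49 in all alternatives. At day 7 Ccng1 differed from healthy by -0.13 ± 0.15.

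Cdkn1b (ENSMUSG00000003031, chromosome 6, 134920401 to 134925513, plus strand), whose protein p27 binds cyclin E and CDK2 complexes and keeps cells from entering S phase, varied widely among healthy mice, at 46.4, 18.9, 55.6 and 16.1 CPM. The day 1 mice had 48.3 and 43.5 CPM, inside that range. At day 3 the values were 25.2, 20.2, 29.6 and 11.4 CPM, all below both day 1 mice, and at day 7 they were 46.9, 54.6, 55.5 and 25.0 CPM. With a spread of 57.6% of the mean among healthy mice, no comparison of Cdkn1b was called: the log2 fold change was 0.42 ± 0.49 at day 1, -0.66 ± 0.41 at day 3 and 0.41 ± 0.41 at day 7. Between days, it differed by -1.09 ± 0.48 from day 1 to day 3 and by 1.07 ± 0.41 from day 3 to day 7 (edgeR, adjusted p = 0.296 and 0.2).

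Mdm2 (ENSMUSG00000020184, chromosome 10, 117688875 to 117710758, minus strand), the ubiquitin ligase that removes p53 and is itself induced by p53, was among the steadier genes of the group. It lay at 57.7, 57.8, 47.7 and 49.9 CPM in healthy mice, 68.4 and 62.4 CPM at day 1, 38.9, 38.6, 52.3 and 60.2 CPM at day 3, and 41.0, 40.8, 45.0 and 45.4 CPM at day 7. Both day 1 mice were above, and all 4 day 7 mice below, the healthy range, but the differences were small. The log2 fold changes were 0.30 ± 0.20 at day 1, -0.17 ± 0.17 at day 3 and -0.31 ± 0.17 at day 7, none of them called (edgeR, adjusted p = 0.502, 0.613 and 0.301).

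Trp53inp1 (ENSMUSG00000028211, chromosome 4, 11156431 to 11174379, plus strand) encodes a stress protein that promotes p53-dependent apoptosis and takes part in autophagy. The healthy mice had 31.2, 28.4, 28.3 and 33.4 CPM, and the day 1 mice 35.0 and 28.2 CPM. Values dropped to 14.2, 15.5, 17.4 and 20.6 CPM at day 3. They rose to 47.3, 45.1, 41.5 and 30.6 CPM at day 7. The 4 day 3 mice thus lay below all other mice, and 3 of the 4 day 7 mice above all other mice. Trp53inp1 fell by 0.84 ± 0.18 on the log2 scale from healthy to day 3 (edgeR, adjusted p = 0.0148), a call that was lost with library size as the only scaling (adjusted p = 0.0541). It differed by -0.90 ± 0.21 between day 1 and day 3 (adjusted p = 0.0416), where 1 of the 10 genes was lower and none higher, against 0.969% and 1.57% of tested genes, 2.54% in all. Between these days the mice did not overlap for 7 of the 10 genes, of which 6 were lower at day 3 (Cdkn1a, Mdm2, Ccng1, Trp53inp1, Gadd45a and Cdkn1b) and 1 higher (Gdf15), against 10.4% and 11.4% of tested genes. The call of Trp53inp1 was lost when any one of day 1 replicates 1 and 2 or day 3 replicates 1 to 3 was left out (adjusted p = 0.537, 0.21, 0.0899, 0.0871 and 0.0736). From day 3 to day 7 it rose by 1.28 ± 0.18 (adjusted p = 0.00714), the gene of the group called under every alternative tried for that comparison. Against healthy mice, the day 7 level was 0.44 ± 0.18 higher on the log2 scale and not called (adjusted p = 0.184).

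Bax (ENSMUSG00000003873, chromosome 7, 45461697 to 45466898, minus strand) encodes the protein that opens the outer mitochondrial membrane in apoptosis. It stood at 164, 133, 140 and 115 CPM in healthy mice and at 203 and 296 CPM in the 2 day 1 mice. Each day 1 mouse exceeded the highest healthy mouse, with a difference of 0.86 ± 0.23 on the log2 scale, and the difference was just outside edgeR's threshold (adjusted p = 0.0528) and inside that of DESeq2 (adjusted p = 0.00998). Without the 2 libraries that stand apart (healthy replicate 4 and day 3 replicate 4), edgeR gave 0.77 with an adjusted p of 0.0447. At day 3 the values were 203, 203, 165 and 126 CPM and at day 7 99.7, 88.3, 95.2 and 78.8 CPM. The day 3 mice overlapped with healthy mice, and the day 7 mice were the lowest of all 14. From day 3 to day 7 Bax fell by 0.94 ± 0.19 (edgeR, adjusted p = 0.0292), to 90.5 ± 9.09 from 174 ± 36.8 CPM (SD, n = 4 each). In this comparison 1 of the 10 genes rose and 1 fell, against 0.413% and 1.36% of tested genes, 1.77% in all. The mice of these days did not overlap for 4 of the 10 genes, with Ccng1, Trp53inp1 and Bbc3 higher at day 7 and Bax lower, against 3.76% and 4.15% of tested genes. The call of Bax was lost when any one of day 3 replicates 1 to 3 or day 7 replicates 1 to 4 was left out (adjusted p = 0.0973, 0.0683, 0.0756, 0.0713, 0.0882, 0.137 and 0.15). Against healthy mice the day 7 difference of -0.61 ± 0.19 was not called by edgeR (adjusted p = 0.0958) and was called by DESeq2 (adjusted p = 0.0472) and by edgeR without the 2 libraries that stand apart (-0.67, adjusted p = 0.0316). Gm45808, which overlaps Bax on the same strand, reached at most 0.446 CPM.

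Bbc3 (ENSMUSG00000002083, chromosome 7, 16308393 to 16318205, plus strand) encodes PUMA, a BH3-only protein that frees BAX from its inhibitors. Its levels were 8.92, 11.5, 11.1 and 11.9 CPM in healthy mice, and 6.75 and 11.4 CPM at day 1. At day 3 they were 8.64, 4.87, 6.83 and 7.30 CPM, and at day 7 10.7, 13.7, 14.4 and 12.4 CPM. All day 3 mice were below all healthy and all day 7 mice. The log2 differences were -0.65 ± 0.23 between healthy and day 3 (edgeR, adjusted p = 0.113) and 0.89 ± 0.23 between day 3 and day 7 (adjusted p = 0.0778), neither called by edgeR and both called by DESeq2 (adjusted p = 0.0451 and 0.00558). Without day 3 replicate 4, edgeR called the difference from day 3 to day 7 as well (1.00, adjusted p = 0.0384). Of the other 9 genes, Trp53inp1 had the pattern nearest to that of Bbc3 (0.751) and Bax the farthest (1.71).

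Sesn2 (ENSMUSG00000028893, chromosome 4, 132492032 to 132510501, minus strand) encodes sestrin 2, which restrains mTORC1 when amino acids are short or cells are under oxidative stress. It lay between 40.7 and 63.0 CPM in healthy mice, at 54.5 and 49.5 CPM at day 1, between 28.7 and 53.2 CPM at day 3 and between 20.2 and 49.9 CPM at day 7. Each group after CCl4 overlapped with the healthy mice. The log2 fold changes of -0.01 ± 0.34, -0.31 ± 0.28 and -0.46 ± 0.28 at days 1, 3 and 7 were not called (edgeR, adjusted p = 1, 0.569 and 0.352).

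Gdf15 (ENSMUSG00000038508, chromosome 8, 70629393 to 70632456, minus strand) encodes a secreted stress hormone of the TGF-β superfamily, which responds to p53 and to ATF4 and CHOP. It was the lowest of the group per length in healthy LSECs, at 1.43, 3.76, 4.40 and 18.5 CPM, and the day 1 mice had 3.58 and 4.33 CPM. The highest healthy value belongs to replicate 4, the library with hepatocyte markers at 8130 CPM. Day 3 mice had 19.8, 40.1, 8.01 and 6.83 CPM, and day 7 mice 12.9, 37.5, 12.8 and 17.2 CPM. All day 3 and day 7 mice lay above healthy replicates 1 to 3 and above both day 1 mice, while healthy replicate 4 lay within their range. Against all 4 healthy mice, the log2 fold changes of 1.41 ± 0.73 at day 3 and 1.52 ± 0.73 at day 7 were not called (edgeR, adjusted p = 0.277 and 0.249). Without healthy replicate 4, the day 7 value was 2.67 and was called (adjusted p = 0.0385). Without that library and day 3 replicate 4, both were called, at 2.71 for day 3 (adjusted p = 0.0221) and 2.66 for day 7 (adjusted p = 0.0206). Other mice moved the values the other way. The day 3 value was 0.73 without day 3 replicate 2 (edgeR, adjusted p = 0.64). The day 7 value was 1.03 without day 7 replicate 2 (adjusted p = 0.521), the day 7 library with the highest hepatocyte markers, at 6292 CPM. The genes outside the lists whose pattern over the 14 mice was most like that of Gdf15 were Hsd11b1 (0.398), which encodes a steroid-converting enzyme abundant in liver, and Apoc1 (0.435), which encodes an apolipoprotein. The part of hepatocyte RNA in the Gdf15 values was not tested.

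The members also differed in how they varied over the 14 mice. Bax was nearest to Cdkn1a (0.680), Sesn2 to Mdm2 (0.729) and Ccng1 to Bbc3 (0.801), while Gdf15 was the farthest member from Cdkn1a, Mdm2, Ccng1, Sesn2, Gadd45a and Cdkn1b, at 1.496 to 1.83. The median over all tested genes was 1.32 to 1.44, depending on the member. Genes outside the lists lay closer to each member than any other member did, but they were picked from far more genes. The 2 nearest were Slc25a3 (0.362) and Pvr (0.403) for Cdkn1a, Adamts1 (0.300) and Wsb2 (0.313) for Mdm2, and Laptm4a (0.493) and Alg2 (0.499) for Ccng1. They were Gm43071 (0.310) and Pdpr (0.397) for Trp53inp1, the pseudogenes Gm7666 (0.287) and Gm9791 (0.296) for Bax, and Gm11465 (0.451) and Gm47291 (0.458) for Bbc3. For Sesn2 they were Plekho2 (0.405) and Cog3 (0.445), for Gadd45a Dedd2 (0.484) and Cass4 (0.551), and for Cdkn1b Kif3b (0.502) and 1700122E12Rik (0.547). These values describe the libraries, which share depth and cell mixture within a mouse, and were not tested.

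Trp53 itself had 78.2, 72.2, 79.2 and 63.1 CPM in healthy mice and 112 and 118 CPM at day 1. It reached 139, 140, 179 and 170 CPM at day 3, above all other mice. At day 7 it was back at 85.9, 61.1, 62.9 and 72.5 CPM, overlapping with healthy mice. The rise to day 3 was 1.10 ± 0.16 on the log2 scale (edgeR, adjusted p = 0.00227) and the fall to day 7 was -1.15 ± 0.16 (adjusted p = 0.00714), while the day 1 difference of 0.65 was not called (adjusted p = 0.0715). The mRNA of p53 was thus highest at day 3, the day at which Ccng1 and Trp53inp1 were lowest. Of the 17 genes in the list of p53 and its regulators, 2 rose at day 3 (4.62% of all tested genes did), Trp53 and Chek1, which encodes the kinase that answers stalled replication (2.57 ± 0.37, adjusted p = 0.00239), and none was called at day 1 or day 7 against healthy mice. Mdm4, the partner of MDM2 in restraining p53, lay at 43.3 to 59.0 CPM in healthy mice and at 33.6 to 64.9 CPM in the others, and was not called. Stellate cell and proliferation genes were also higher at day 3, and their part in the Trp53 values was not tested.

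Among 34 further p53 targets, 33 were tested and most were not called. At day 1, 1 rose and 5 fell, against 2.42% and 1.64% of all tested genes. Bid, which links death receptors to BAX, rose by 1.90 ± 0.21 on the log2 scale, from 13.1, 15.9, 17.1 and 13.4 CPM in healthy mice to 50.9 and 60.1 CPM (edgeR, adjusted p = 0.000338). Sesn1 (sestrin 1), Ephx1 (an epoxide hydrolase), Xpc (the DNA damage sensor of nucleotide excision repair) and Plk2 (a polo-like kinase) fell by 1.35 ± 0.28, 2.01 ± 0.42, 1.43 ± 0.31 and 1.44 ± 0.36, with adjusted p-values of 0.0136, 0.0162, 0.0205 and 0.0388, and Btg2 was the fifth. The list's median log2 fold change was -0.37, against -0.03 over all tested genes. At day 3, again 1 rose and 5 fell, against 4.62% and 2.58% of all tested genes. Dram1, a regulator of autophagy, rose by 1.70 ± 0.43 (adjusted p = 0.0296), and Sesn1 (-1.45 ± 0.22, adjusted p = 0.0027), Plk2 (-1.19 ± 0.28, adjusted p = 0.0217), Polk, a DNA polymerase that bypasses lesions (-0.70 ± 0.19, adjusted p = 0.0415), Xpc (-0.87 ± 0.24, adjusted p = 0.0451) and the death receptor gene Fas fell. The median was 0.25, against 0.18 over all tested genes. At day 7, Dram1 was higher (2.07 ± 0.43, adjusted p = 0.0232) and Tigar, which lowers glycolysis, was lower (-0.83 ± 0.20, adjusted p = 0.0419), against 2.19% and 0.992% of all tested genes. Sesn1, at 71.8 to 85.1 CPM in healthy mice, was at 26.7 and 34.8 CPM at day 1, 20.1 to 35.9 CPM at day 3 and 48.3 to 79.5 CPM at day 7, so the mice of days 1 and 3 did not overlap with healthy mice. Sesn1 and Sesn2 thus had different courses, but the difference between the 2 genes was not tested.

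**Figure D3:**
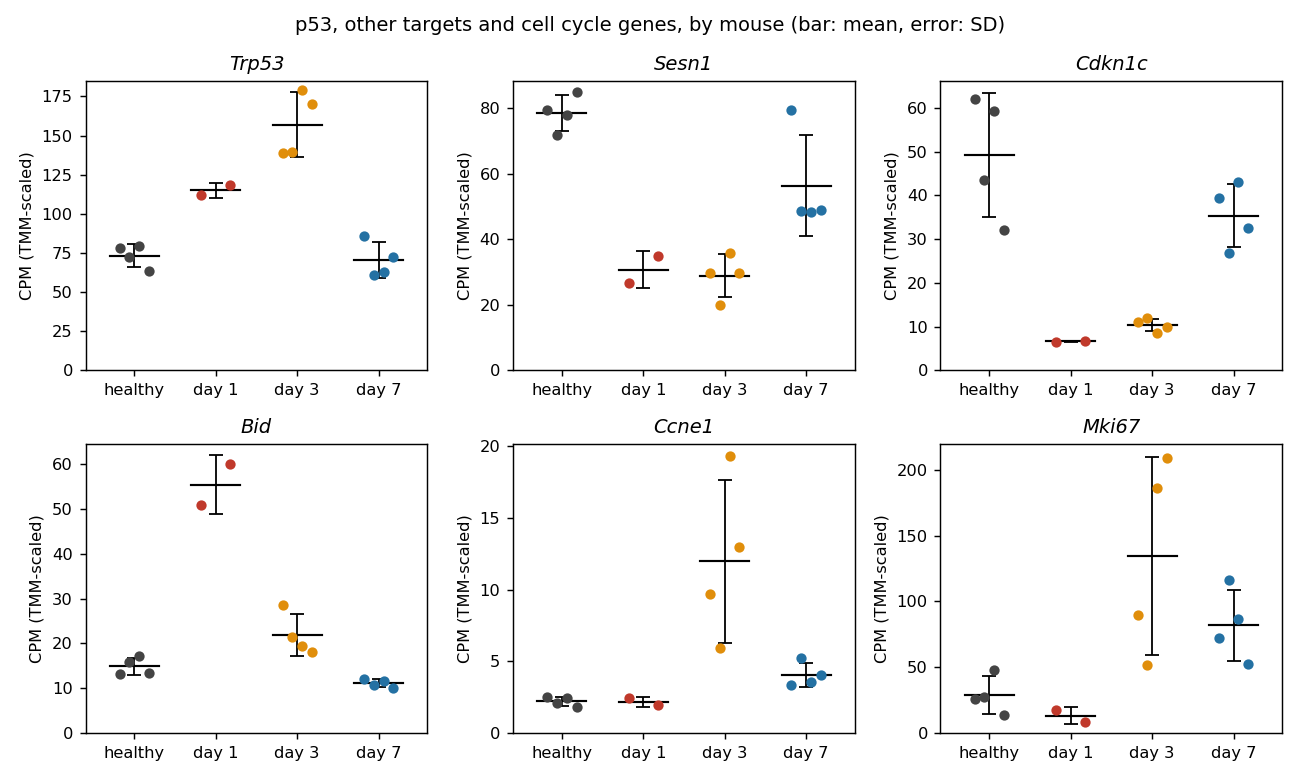
CPM (linear axis from 0, TMM-scaled) of Trp53, of its targets Sesn1 and Bid, of the CDK inhibitor Cdkn1c and of the cell cycle genes Ccne1 and Mki67 in each mouse, by group (n = 4, 2, 4 and 4). Points are mice, the bar is the mean and the error bar the SD, and Trp53, Ccne1 and Mki67 have their highest mean at day 3 while Cdkn1c is lowest at days 1 and 3.

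Many, but not all, genes of the cell cycle lists rose at day 3. Of 13 genes for CDKs, cyclins and the turnover of p27, 7 rose at day 3 and none fell (4.62% and 2.58% of all tested genes), with a median log2 fold change of 1.43. They include Cdk6 (1.57 ± 0.19, adjusted p = 0.00125), Cks1b, a cofactor for the breakdown of p27 (2.30 ± 0.32, adjusted p = 0.00198), Ccne1, the cyclin that p27 binds (2.44 ± 0.34, adjusted p = 0.002), and Cdk1 (2.01 ± 0.28, adjusted p = 0.002). At day 1 only Ccnd2 of this list was called, lower by -1.21 ± 0.25 (edgeR, adjusted p = 0.0163), and at day 7 only Cdk6, higher by 1.16 ± 0.19 (adjusted p = 0.00832). Over all tested genes, 1.64% were lower at day 1 and 2.19% higher at day 7. Of 18 proliferation genes 13 rose at day 3, with a median of 2.02, and none was called at day 1 or day 7. The list's median was -0.68 at day 1 and 0.95 at day 7, against -0.03 and 0.02 over all tested genes. Mki67, present in dividing cells, lay at 13.5 to 48.1 CPM in healthy mice, 8.67 and 17.7 CPM at day 1, 51.8 to 209 CPM at day 3 and 52.6 to 116 CPM at day 7. Each day 3 and each day 7 mouse thus exceeded the highest healthy mouse. Mki67 rose at day 3 by 2.23 ± 0.48 (edgeR, adjusted p = 0.0143) and was not called at day 7. In the same mice, Cdkn1a overlapped with its healthy level at day 3, and Cdkn1b had its lowest mean without passing the test.

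Of 5 other CDK inhibitor genes, Cdkn1c, which encodes p57, was the 1 called against healthy mice. Cdkn1c was lower at days 1 and 3, as were 1.64% and 2.58% of all tested genes. It fell from 62.1, 43.5, 59.3 and 32.1 CPM in healthy mice to 6.48 and 6.73 CPM at day 1 and to 8.57 to 11.9 CPM at day 3, with no overlap, and was at 26.7 to 43.0 CPM at day 7. The log2 fold changes were -2.90 ± 0.32 at day 1 (edgeR, adjusted p = 0.000314) and -2.25 ± 0.23 at day 3 (adjusted p = 0.000607), and it rose by 1.77 ± 0.23 from day 3 to day 7 (adjusted p = 0.00714). At day 1, p21 mRNA was 2.34 times its healthy mean, a difference that was not called (edgeR, adjusted p = 0.0773), while p57 mRNA was lower in both mice and called.

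Of 14 other growth arrest genes, 2 rose and 2 fell at day 3, against 4.62% and 2.58% of all tested genes. Rbl1, a relative of the retinoblastoma gene that is itself expressed in S phase, rose by 0.89 ± 0.17 (edgeR, adjusted p = 0.00764) and Gadd45b by 1.26 ± 0.29 (adjusted p = 0.0209). Gadd45g fell by 1.32 ± 0.25 (adjusted p = 0.00803) and Ccng2 by 0.81 ± 0.22 (adjusted p = 0.0426). Gadd45a was not called at day 3 (-0.15 ± 0.24), and the differences between the 3 Gadd45 genes were not tested. Gadd45g was also lower at day 7 (-1.12 ± 0.25, adjusted p = 0.0293), as were 0.992% of all tested genes, and none of the list was called at day 1. In the BCL2 family outside Bax and Bbc3, 1 of 13 genes was called against healthy mice, Bid, which the list of further targets also holds. It was higher at day 1, as were 2.42% of all tested genes.

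Because Sesn2 and Gdf15 also answer to ATF4 and CHOP, a list of 12 genes of that stress response was read as well, of which 11 were analysed. Ddit3, the gene of CHOP, was not analysed here. At day 1, 2 of the 11 rose and 1 fell, against 2.42% and 1.64% of all tested genes. Slc7a11, a cystine transporter, rose by 4.56 ± 0.58 on the log2 scale and Asns, asparagine synthetase, by 2.95 ± 0.39, while Atf3 fell by 1.77 ± 0.34 (edgeR, adjusted p = 0.000761, 0.000931 and 0.0101). At day 3, 4 of the 11 rose (4.62% of all tested genes did): Asns, Psat1, Slc7a11 and Nupr1, by 2.53 ± 0.35, 2.79 ± 0.42, 2.40 ± 0.50 and 3.14 ± 0.66 (adjusted p = 0.002, 0.00273, 0.0126 and 0.0136). At day 7, Atf4 was lower, by -0.97 ± 0.21 (adjusted p = 0.0287), as were 0.992% of all tested genes. Neither Sesn2 nor Gdf15 was called at day 1, when Asns was at 4.997 and 9.87 CPM against 0.770 to 1.08 CPM in healthy mice. Of 8 immediate early genes, which respond within minutes to cell handling and to growth factors, Atf3 was lower at day 1, Dusp1 (-1.11 ± 0.18, adjusted p = 0.00391) and Fos (-0.90 ± 0.20, adjusted p = 0.0164) at day 3 and Dusp1 at day 7 (-0.97 ± 0.18, adjusted p = 0.0136). Over all tested genes, 1.64%, 2.58% and 0.992% were lower at days 1, 3 and 7. The summed level of the 8 immediate early genes was 20217 to 22788 CPM in healthy mice and 10993 to 15758 CPM in all others, and its part in the values of the 10 genes was not tested.

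**Figure D4:**
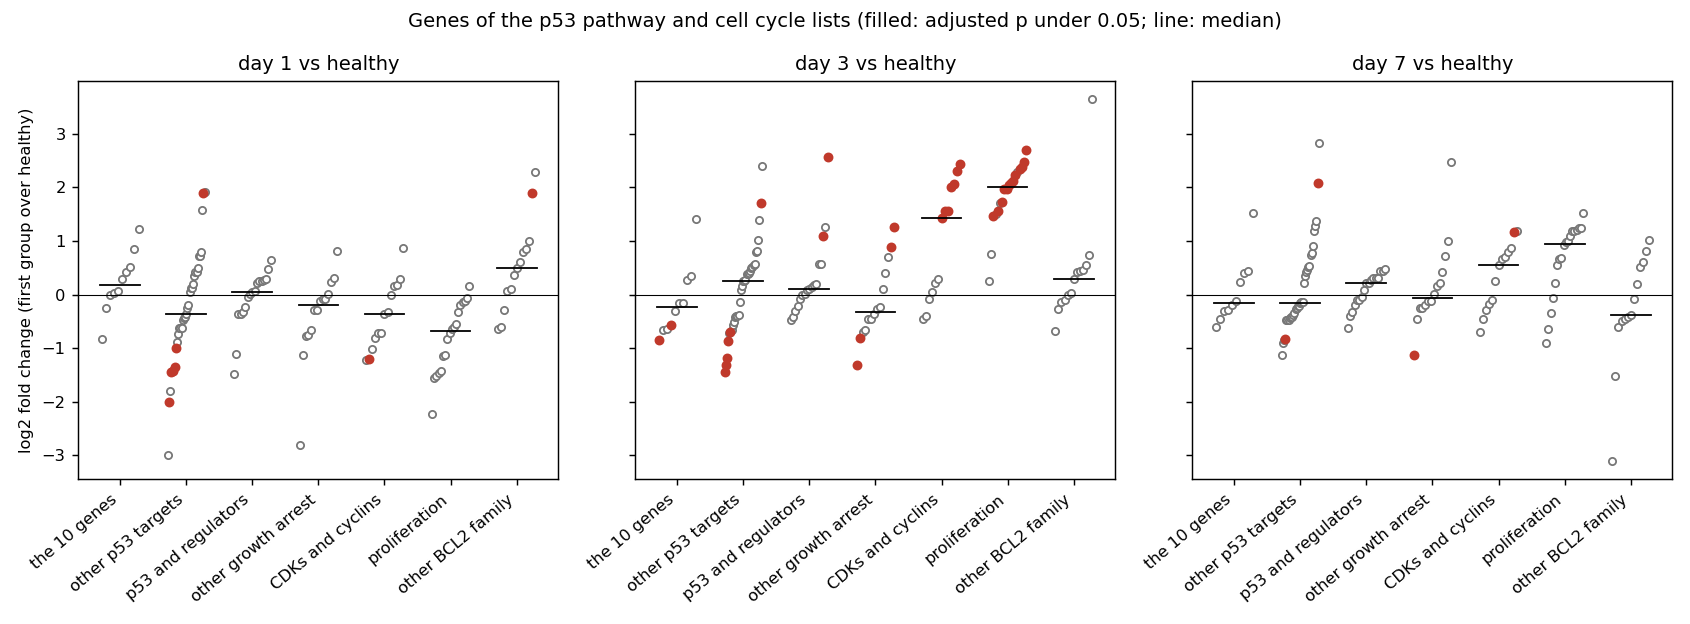
Log2 fold change (y axis) against healthy LSECs at days 1, 3 and 7 of the tested genes of each list, with filled points for an adjusted p under 0.05 (edgeR) and a line at the list's median. The 10 genes lie on both sides of 0, from Cdkn1a at 1.22 at day 1 to Trp53inp1 at -0.84 at day 3, with medians of 0.18, -0.24 and -0.16, while the CDK and cyclin and the proliferation lists stand at medians of 1.43 and 2.02 at day 3.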

How the data were processed

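Bulk RNA sequencing of LSECs from 14 mice in 4 groups was analysed. After quality control and trimming (FastQC, AfterQC), the authors aligned reads to GRCm38.p6 using STAR, ran StringTie, and deposited whole-number counts per Ensembl gene, without normalization. The annotation release, the strand setting and the step from StringTie to whole numbers are not given in the sources used here, so counts of overlapping genes are uncertain. Names, positions and exon lengths came from GENCODE vM21, which held 54495 of the 54524 genes.

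Total counts per sample ran from 46401496 to 103912264, without molecular identifiers, and each sample is 1 mouse. Genes were filtered with edgeR's filterByExpr by group (minimum count 10, minimum total 15), which left 26626, scaled with TMM and tested with edgeR 4.0.16 (R 4.3.3, quasi-likelihood test, all 14 samples fitted together with 1 term a group). P-values were adjusted by Benjamini-Hochberg over all tested genes, with a threshold of 0.05. The SE of a log2 fold change is its size divided by the square root of F. CPM values are per TMM-scaled library, and a prior count of 2 was added for log2 CPM. The steps were tested on simulated counts.

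Alternatives were DESeq2 1.42.0, RLE size factors, library size only, no filter on low counts, the replicate number as a block and each sample left out in turn. A fit without healthy replicate 4 and day 3 replicate 4 was chosen after seeing the data. The members and lists were chosen with earlier results of these data known. Named are the 10 genes, Trp53, Mdm4, Mki67, up to 4 called genes in each direction from each other list against healthy mice, ranked by adjusted p, and all called genes of lists with under 4 called. Also named are the 2 genes outside the lists most like each member, and the genes Btg2 and Fas, chosen after their values were seen. Promoter windows came from RefSeq. The study's staining, blood values, qPCR and single cell data were not used here.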

Additional observations from a re-analysis of the deposited data

Results flagged for a closer look

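For 2 genes of the group the effects of CCl4 against healthy mice differed between days by a direct test, which is the edgeR comparison of the days themselves. The effect on Trp53inp1 at day 3 was lower than that at day 1 by -0.90 on the log2 scale (adjusted p = 0.0416), a call kept in 3 of 12 alternatives, and the effect at day 7 exceeded that at day 3 by 1.28 (adjusted p = 0.00714). The effect on Bax at day 7 was lower than that at day 3 by -0.94 (adjusted p = 0.0292), a call kept in 6 of 14 alternatives. All 4 day 3 mice lay below all other mice for Trp53inp1, and all 4 day 7 mice lay below all other mice for Bax. None of 30 groups of 4 values, 3 groups for each gene, held a value past the threshold of Dixon's test. With 4 values this test flags only a gap that makes up most of the range, so it cannot show that no value stood apart. Gdf15 in healthy replicate 4, at 18.5 CPM against at most 4.40 CPM in the other healthy mice, was not flagged.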

How the results depend on the processing

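The rise of Trp53inp1 from day 3 to day 7 kept its direction and its call under every alternative (log2 fold change 1.23 to 1.53), and its fall to day 3 kept its direction (-1.03 to -0.78) and lost its call with library size only. With DESeq2, genes of the group called numbered 2, 3, 1, 2 and 4 for day 1, day 3 and day 7 against healthy, day 3 against day 1 and day 7 against day 3, in that order, and genes called in all numbered 2762, 3627, 2619, 2309 and 1671, against 1080, 1915, 846, 676 and 472 with edgeR. The cause of such changes was not tested. With library size only, 1 gene of the group was called at day 1, 0 at day 3 and 0 between day 1 and day 3, and 287 genes in all between day 3 and day 7. With RLE size factors, no filter on low counts or the replicate block, 0 were called between day 1 and day 3, and with no filter 1 of the group and 157 genes in all between day 3 and day 7. Without the 2 libraries that stand apart, 1 gene of the group was called at day 1 and 2 at day 7, and genes called in all numbered 2524 at day 7, 1331 between day 1 and day 3 and 1692 between day 3 and day 7. The share of called genes that were higher moved with library size only from 64.2% to 75.1% at day 3 (47.3% with no filter and 49.3% without day 3 replicate 3, so that more genes were lower than higher) and from 68.8% to 86.8% at day 7, and with DESeq2 from 59.6% to 42.7% at day 1, from 61.8% to 71.9% between day 1 and day 3 and from 23.3% to 37.2% between day 3 and day 7.

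With the replicate block, 1 gene of the group was called at day 3, and genes called in all fell to 594, 435, 311 and 244 at day 1, day 7, day 3 against day 1 and day 7 against day 3. The numbers do not pair the mice: the deviations of same-numbered mice correlated by more than 0.1 in 0 of 18 pairs (median -0.00056, highest 0.096). The block is therefore given only among the alternatives and is not part of the main test.

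None of the log2 fold changes that changed sign was called, and the one that moved furthest was Gdf15 at day 1, at -0.83 with all libraries. Between healthy and day 1, Ccng1 was -0.012 with library size only and -0.022 with no filter, Sesn2 0.14 with the block and Gdf15 0.29 without the 2 libraries. Between day 3 and day 7, Gadd45a was 0.0031 with DESeq2, 0.0063 with RLE, 0.017 with library size only, 0.019 with no filter, 0.00017 with the block and 0.017 without the 2 libraries, where Mdm2 was 0.073, Gdf15 -0.048 and Sesn2 0.037.

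Leaving out 1 mouse at a time, between 164 and 810 genes were called at day 1, 946 and 3314 at day 3, 193 and 1509 at day 7, 49 to 915 for day 3 against day 1 and 26 to 1652 for day 7 against day 3. Of the group, 1 or 2 genes were called at day 3, 0 or 1 at day 7, 0 or 1 for day 3 against day 1 and 1 to 3 for day 7 against day 3. With 1 day 1 mouse left, that mouse was assumed to vary like the other groups. Signs changed at day 1 for Bbc3 (-0.71 to 0.033), Ccng1 (-0.022 to 0.10), Gdf15 (-1.17 to 0.28), Sesn2 (-0.13 to 0.093) and Trp53inp1 (-0.14 to 0.18), at day 3 for Cdkn1a (-0.040 to 0.45) and Gadd45a (-0.38 to 0.018), and for day 7 against day 3 for Gadd45a (0.0097 to 0.20), Gdf15 (-0.38 to 0.82), Mdm2 (-0.21 to 0.073) and Sesn2 (-0.23 to 0.15).

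With 2 mice at day 1, differences of that day were measured with larger SEs than those of day 3 and day 7 for each of the 10 genes, and a call that was missed does not show that a gene was unchanged.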
